A study of Mus musculus with 25 samples.

Results

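The small leucine-rich proteoglycans (SLRPs) described here are the 8 mouse genes Dcn, Lum, Bgn, Fmod, Ogn, Omd, Prelp and Aspn, chosen by name from the 19937 genes measured on 25 microarrays. Each gene was read by 1 probe set. The arrays profiled whole mammary tumors and mammary glands, and were grouped by their labels. The tumor groups were K8-creERT2/PIK3CA H1047R ("K8 tumors", n = 10), from mice of mixed FVB/CD1 strain, and Lgr5-creERT2/PIK3CA H1047R ("Lgr5 tumors", n = 10), from mice of mixed FVB/C57/BL6 strain. The matching glands, from mice of the same strain mixtures, were labelled as K8-creERT2 controls ("K8 glands", n = 2) and Lgr5-creERT2 controls ("Lgr5 glands", n = 3). The labels name no PIK3CA allele for the glands and print the same tamoxifen protocol for all samples. Tamoxifen, given to adult mice of 7 to 8 weeks, switches on the inducible Cre and with it the mutant PIK3CA, an activated catalytic subunit of PI3-kinase, in cells that use the keratin 8 or the Lgr5 promoter. Age at collection is not stated in the labels. Strain background goes with the Cre line, so line and background cannot be told apart. The labels do not say that each array came from a separate animal, so the p-values measure the spread between these samples.

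SLRPs are secreted proteins with a core of leucine-rich repeats, most of them carrying chondroitin, dermatan or keratan sulfate chains. They bind fibrillar collagens and set fibril spacing and diameter, and several bind growth factors of the TGF-beta family. In the mammary gland they are made mainly by stromal cells, such as fibroblasts, rather than by the epithelium. In RNA from whole tissue, fewer cells of a type and less RNA per cell cannot be told apart.

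On a number of arrays the tissue markers and the labels disagreed. The mean log2 level of the 11 adipocyte markers measured was 12.52 to 12.74 on Lgr5 tumors 2, 6, 7, 8 and 9 and 7.18 to 9.54 on the 5 gland arrays. The mean of 9 epithelial markers was 9.30 to 10.11 on those 5 Lgr5 tumors and 11.24 to 11.68 on the glands. The mean of 10 squamous keratinocyte markers was 10.02 on K8 tumor 9, 10.20 on Lgr5 tumor 10 and 8.87 to 10.89 on the glands, but at most 8.15 on every other array. A normal mouse mammary gland is rich in fat and poor in epithelium. The marker levels of the 5 fat-rich arrays thus go against their tumor label, and those of the gland arrays against their gland label. An exchange of labels or table columns and a true property of these samples cannot be told apart here. Tumor and gland below therefore mean arrays so labelled, and a difference between them would change or turn its direction as tissue if labels had been exchanged. Groups were kept as labelled, and each result is also given without the 5 fat-rich arrays, with K8 tumor 9 and Lgr5 tumor 10 left out, and without all 7, where this changes a call. The adipocyte and fibroblast marker means were also used as covariates in the fit. Beyond these fits, the part of these arrays' marker levels in the SLRP differences was not tested.

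The 8 genes lie at 4 places in the mouse genome. In the RefSeq gene table (GRCm38.p6), Dcn and Lum neighbour each other on chromosome 10 beside Kera and Epyc. Prelp and Fmod are neighbours on chromosome 1, next to Optc, and Aspn, Omd and Ogn follow Ecm2 on chromosome 13. Bgn stands apart from the others on the X chromosome. RefSeq promoter entries matched 6 of the 8 members, all but Dcn and Lum. The 250 bases ahead of the annotated start are shown for Bgn and Fmod, which moved together over the arrays, and for Prelp and Ogn, which moved together in another way. Fmod and Prelp are thus adjacent genes whose patterns differed over the 25 arrays (Pearson's r = -0.085). This difference rested on the 5 fat-rich Lgr5 tumors. Without them r was 0.68 for Fmod and Prelp and 0.89 for Bgn and Prelp, over 20 arrays. Capitals mark matches, on either strand, to the TATA box TATAAA or the GC box GGGCGG.
Bgn (chrX:73483351-73483600, plus strand): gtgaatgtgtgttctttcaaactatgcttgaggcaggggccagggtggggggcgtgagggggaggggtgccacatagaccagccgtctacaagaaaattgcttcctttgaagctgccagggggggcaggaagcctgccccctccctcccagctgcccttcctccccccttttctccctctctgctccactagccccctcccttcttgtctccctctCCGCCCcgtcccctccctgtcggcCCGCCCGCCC
Fmod (chr1:134037004-134037253, plus strand): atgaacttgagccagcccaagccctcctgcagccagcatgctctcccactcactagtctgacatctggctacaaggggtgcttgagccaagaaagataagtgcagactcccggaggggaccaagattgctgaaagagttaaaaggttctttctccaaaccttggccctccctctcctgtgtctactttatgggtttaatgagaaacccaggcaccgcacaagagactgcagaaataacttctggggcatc
Prelp (chr1:133921402-133921651, minus strand): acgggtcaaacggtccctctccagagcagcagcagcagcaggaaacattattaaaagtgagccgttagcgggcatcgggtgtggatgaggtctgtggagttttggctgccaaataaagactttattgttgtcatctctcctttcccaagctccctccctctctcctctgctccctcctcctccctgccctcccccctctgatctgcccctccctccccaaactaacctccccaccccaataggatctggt
Ogn (chr13:49607765-49608014, plus strand): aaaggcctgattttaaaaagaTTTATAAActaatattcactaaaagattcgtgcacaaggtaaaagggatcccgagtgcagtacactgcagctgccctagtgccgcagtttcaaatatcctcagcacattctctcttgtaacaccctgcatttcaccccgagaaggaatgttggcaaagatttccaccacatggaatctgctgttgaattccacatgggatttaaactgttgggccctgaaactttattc
The Bgn window holds 3 GC boxes, of which 2 overlap at the end nearest the start site, and the Ogn window holds 2 TATA-box matches that overlap each other on opposite strands. No match to either motif, to the SMAD-type element CAGACA or to the AP-1 site TGACTCA was found in the Fmod and Prelp windows. Of 32851 mouse promoter windows of the same length, 12.4% hold TATAAA, 32.7% GGGCGG, 17.1% CAGACA and 4.46% TGACTCA. Aspn has 2 TATAAA matches and Omd none of the 4 motifs. These are letter matches and say nothing of the factors.

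Dcn encodes decorin, a dermatan sulfate proteoglycan that decorates collagen I fibrils and binds TGF-beta. All values below are log2 array levels. Dcn ran from 12.06 through a median of 12.94 to 13.07 in K8 tumors, and stood at 11.43 and 11.98 in K8 glands. In Lgr5 tumors it ran from 12.60 through 13.13 to 13.30, and the Lgr5 glands had 12.02, 12.13 and 12.50. Every tumor lay above every gland of its own line. The group order by mean was Lgr5 tumors (13.09 ± 0.20, SD), K8 tumors (12.86 ± 0.29), Lgr5 glands (12.22 ± 0.25) and K8 glands (11.71 ± 0.39). K8 tumors overlapped their neighbours on both sides in this order, the Lgr5 tumors and the Lgr5 glands. The gland groups did not overlap but did not differ in the test.

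Lum encodes lumican, a keratan sulfate proteoglycan of collagenous stroma. It ran from 8.87 through 11.32 to 11.78 in K8 tumors and stood at 7.57 and 8.22 in K8 glands. Lgr5 tumors ran from 9.32 through 11.49 to 12.14, against 9.35, 9.23 and 9.80 in Lgr5 glands. The K8 groups did not overlap, and in the Lgr5 line tumor 3, the lowest, fell within the gland range. The other 9 Lgr5 tumors lay at 10.27 or higher.

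Ogn encodes osteoglycin, also called mimecan, a small keratan sulfate proteoglycan. Its levels were 8.34, 10.10 and 10.92 (lowest, median, highest) in K8 tumors and 6.71 and 7.74 in K8 glands. In Lgr5 tumors they were 9.10, 11.19 and 11.75, and in Lgr5 glands 8.73, 8.91 and 8.21. Tumors and glands of each line were separate, although K8 tumor 9, at 8.34, lay inside the range of the Lgr5 glands. Ogn had the widest span of the 8 genes, 5.04 log2 units between K8 gland 1 and Lgr5 tumor 2.

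Prelp encodes a proline- and arginine-rich leucine-rich repeat protein that anchors basement membranes to collagen. Its levels were 9.54, 10.71 and 11.43 (lowest, median, highest) in K8 tumors and 9.26 and 9.85 in K8 glands. In Lgr5 tumors they were 10.46, 11.85 and 12.54, and in Lgr5 glands 10.01, 9.83 and 10.24. The Lgr5 groups did not overlap, while K8 tumor 4 was lower than K8 gland 2.

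Bgn encodes biglycan, the closest relative of decorin, known to carry chondroitin or dermatan sulfate chains and to act on Toll-like receptors when released from matrix. It was 12.04, 12.58 and 12.67 (lowest, median, highest) in K8 tumors and 11.66 and 11.98 in K8 glands. In Lgr5 tumors it was 11.72, 12.31 and 12.91, against 11.93, 12.16 and 12.25 in Lgr5 glands. The Lgr5 tumors reached both below and above the Lgr5 glands, and Bgn had the narrowest span of the 8 genes, 1.26 log2 units.

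Fmod encodes fibromodulin, a keratan sulfate proteoglycan that guides collagen fibril assembly and cross-linking. It was 7.34, 11.13 and 11.61 (lowest, median, highest) in K8 tumors and 7.04 and 7.69 in K8 glands. In Lgr5 tumors it was 6.97, 8.38 and 11.42, against 7.69, 8.55 and 8.19 in Lgr5 glands. The Lgr5 tumors fell into separate levels: tumors 1, 3, 4 and 5 had 10.89 to 11.42, tumor 10 had 8.76, and tumors 2, 6, 7, 8 and 9 had 6.97 to 7.99. Among the K8 tumors only tumor 9, at 7.34, was below 10.11. The lowest Fmod value of all 25 arrays was thus on an Lgr5 tumor array, number 7, whereas K8 gland 1 was lowest for each of the other 7 genes.

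Aspn encodes asporin, which carries no glycosaminoglycan chain and binds collagen and TGF-beta. It was 8.65, 9.32 and 11.10 (lowest, median, highest) in K8 tumors and 7.72 and 8.80 in K8 glands. In Lgr5 tumors it was 8.90, 10.42 and 11.68, against 9.02, 9.91 and 9.53 in Lgr5 glands. Tumors and glands overlapped in both lines. The means of K8 tumors (9.48 ± 0.67, SD) and Lgr5 glands (9.49 ± 0.44) were nearly the same.

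Omd encodes osteomodulin, a keratan sulfate proteoglycan best known from bone. It was 5.10, 5.34 and 5.94 (lowest, median, highest) in K8 tumors and 5.02 and 5.05 in K8 glands. In Lgr5 tumors it was 5.16, 5.62 and 6.85, against 5.12, 5.07 and 5.05 in Lgr5 glands. These levels lay below every array's median over all probe sets, which was 6.34 to 6.43, except on Lgr5 tumor 1. Its small differences are therefore near the dim end of the arrays.

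**Figure D1:**
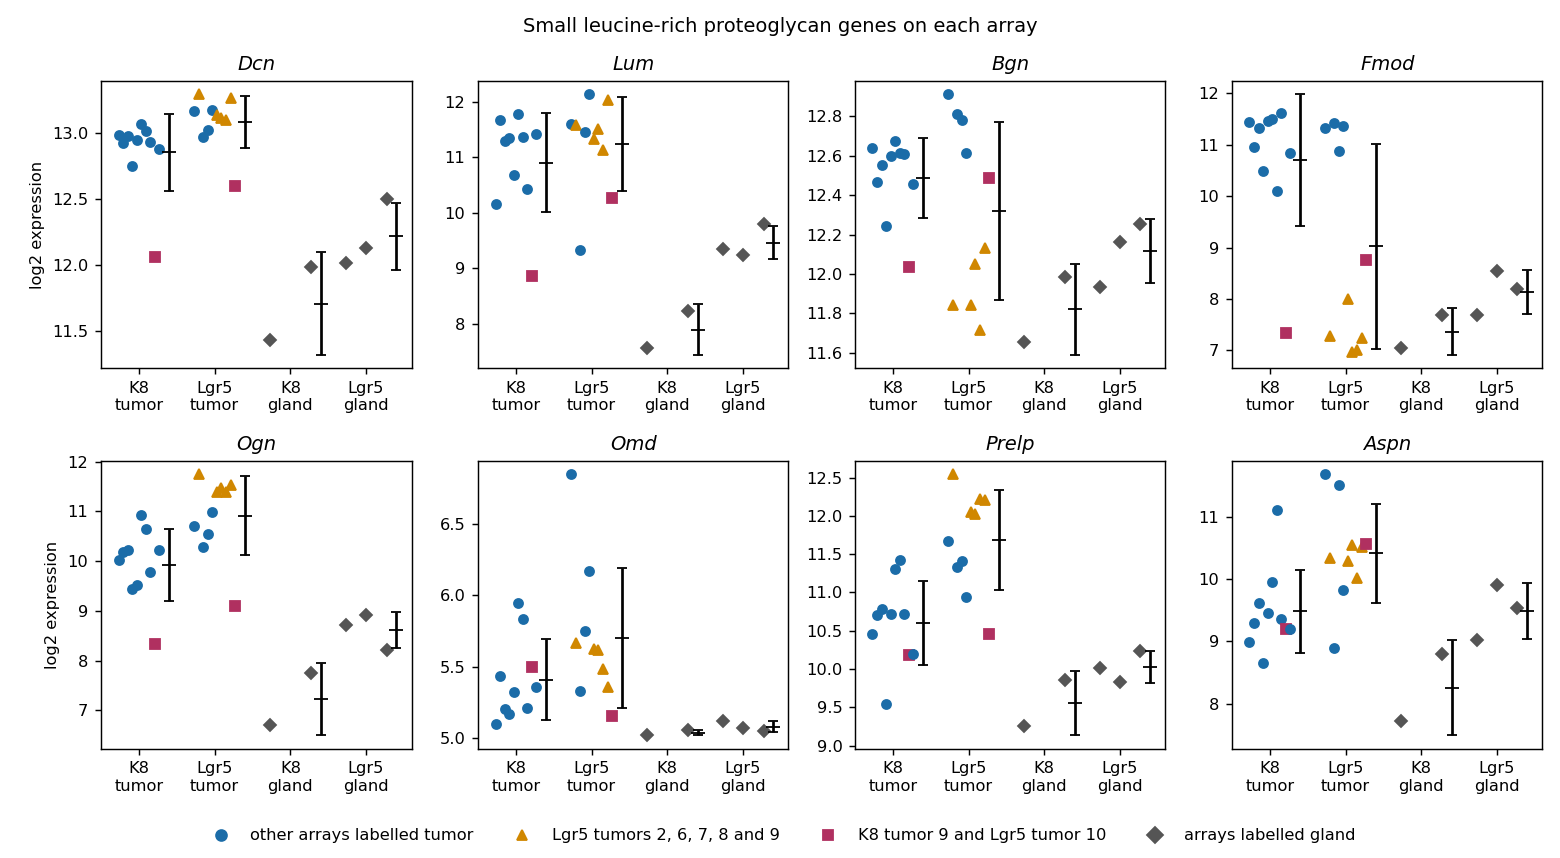
Log2 array level of each of the 8 genes on every array (points; vertical axis), with the groups along the horizontal axis, bars for the group mean ± SD, and symbols for the 5 fat-rich Lgr5 tumors, for K8 tumor 9 and Lgr5 tumor 10, for the other tumors and for the glands. Dcn, Lum, Ogn and Prelp are high on most tumor arrays, while Fmod is split within the Lgr5 tumors, with 5 arrays at 6.97 to 7.99 and 4 at 10.89 to 11.42.

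The comparison of Lgr5 tumors with Lgr5 glands asks how a tumor that began in Lgr5-positive cells differs from glands of the same line. Dcn, Lum, Ogn and Prelp were higher in the tumors, and no member was lower. Thus 4 of 8 members passed the test in the upward direction (limma, Benjamini-Hochberg adjusted p under 0.05 over all genes), and 5.28% of all genes did. In the downward direction 10.6% of all genes passed. Ogn was 4.93-fold higher (log2 difference 2.30 ± 0.47, SE; adjusted p = 0.00843, limma). Lum was 3.43-fold higher (1.78 ± 0.52; adjusted p = 0.0273, limma), Prelp 3.16-fold (1.66 ± 0.36; adjusted p = 0.00994) and Dcn 1.83-fold (0.87 ± 0.17; adjusted p = 0.00678). Lum missed the threshold with the replicate number as a block (adjusted p = 0.127, limma) and in a fit on these groups alone (adjusted p = 0.06).

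The other 4 members did not pass. Fmod differed by 0.88 ± 0.99 (SE; adjusted p = 0.592, limma), with a 95% interval from -1.17 to 2.94 that holds both no difference and a large one. Bgn differed by 0.20 ± 0.21 (adjusted p = 0.559), Aspn by 0.93 ± 0.45 (adjusted p = 0.163) and Omd by 0.62 ± 0.24 (adjusted p = 0.0746). By range, Dcn, Ogn, Omd and Prelp were higher on every tumor than on every gland, which held for 4 of 8 members and 2.20% of all genes. No member, and 3.88% of all genes, was lower on every tumor. The median difference over the 8 members was 0.91, and over all genes it was -0.01.

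This count turned on the arrays that went against their labels. Without the 5 fat-rich Lgr5 tumors, 0 of the 8 members passed in the same comparison, and only 1 gene of all genes did. The differences then ran from 0.60 for Bgn to 2.61 for Fmod, among them 0.77 for Dcn, 1.71 for Ogn and 1.14 for Prelp, with adjusted p from 0.0826 to 0.337 over the 8 members (limma). Without all 7 arrays, 7 members were higher, every one but Aspn (0.99; adjusted p = 0.304), and 7.14% of all genes were called higher and 10.8% lower. Fmod was then higher by 3.11 ± 0.33 (adjusted p = 4.04e-05, limma) and Bgn by 0.66 (adjusted p = 0.000906). Without K8 tumor 9 and Lgr5 tumor 10 alone, 5 members were higher, Omd in addition (0.68 ± 0.24; adjusted p = 0.0369, limma), and 10.7% of all genes were. Leaving out Lgr5 gland 1 alone left 1 member called and 252 of all genes.

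In K8 tumors against K8 glands, the parallel question for tumors that began in keratin 8-positive luminal cells, Dcn, Lum and Ogn were higher. These are 3 of 8 members, where 3.42% of all genes were called higher and 5.69% lower. Lum was 8.04-fold higher (log2 difference 3.01 ± 0.61, SE; adjusted p = 0.012, limma), Ogn 6.53-fold (2.71 ± 0.55; adjusted p = 0.012) and Dcn 2.22-fold (1.15 ± 0.19; adjusted p = 0.00679). Fmod had the largest difference, 3.34 ± 1.17, but missed the threshold (adjusted p = 0.0735, limma). K8 tumor 9 was at gland level, and the error of the fit was shared with the Lgr5 tumors. The SD of Fmod was 1.28 in K8 tumors and 1.99 in Lgr5 tumors. Fits without some arrays of these groups are given below, and the part of each group was not tested beyond them. The differences of Bgn (0.67 ± 0.25), Prelp (1.05 ± 0.43), Aspn (1.22 ± 0.53) and Omd (0.37 ± 0.28) did not pass either, with adjusted p from 0.0922 to 0.469. Dcn, Lum, Bgn, Ogn and Omd were higher on every K8 tumor than on both K8 glands, which held for 5 of 8 members and 7.23% of all genes. No member was lower on every tumor, as 9.08% of all genes were. The median difference was 1.19 over the members and -0.01 over all genes.

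With K8 tumor 9 and Lgr5 tumor 10 left out, 6 members were higher in K8 tumors, every one but Omd and Aspn, and Fmod was higher by 3.71 ± 1.07 (adjusted p = 0.0171, limma). Of all genes 8.09% were then called higher. Without all 7 arrays Fmod kept that difference with a smaller error, 3.71 ± 0.34 (adjusted p = 3.83e-06), and 6 members and 11.4% of all genes were called higher. Without the 5 fat-rich Lgr5 tumors alone, 5 members and 4.73% of all genes were called higher. The comparison rests on 2 glands: without K8 gland 1 no member and 30 of all genes passed, and without K8 gland 2 only 1 member and 75 genes did. Squamous markers, all 10 of them, were lower in the tumors of both lines than in the glands, and their part in the SLRP differences was not tested.

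**Figure D2:**
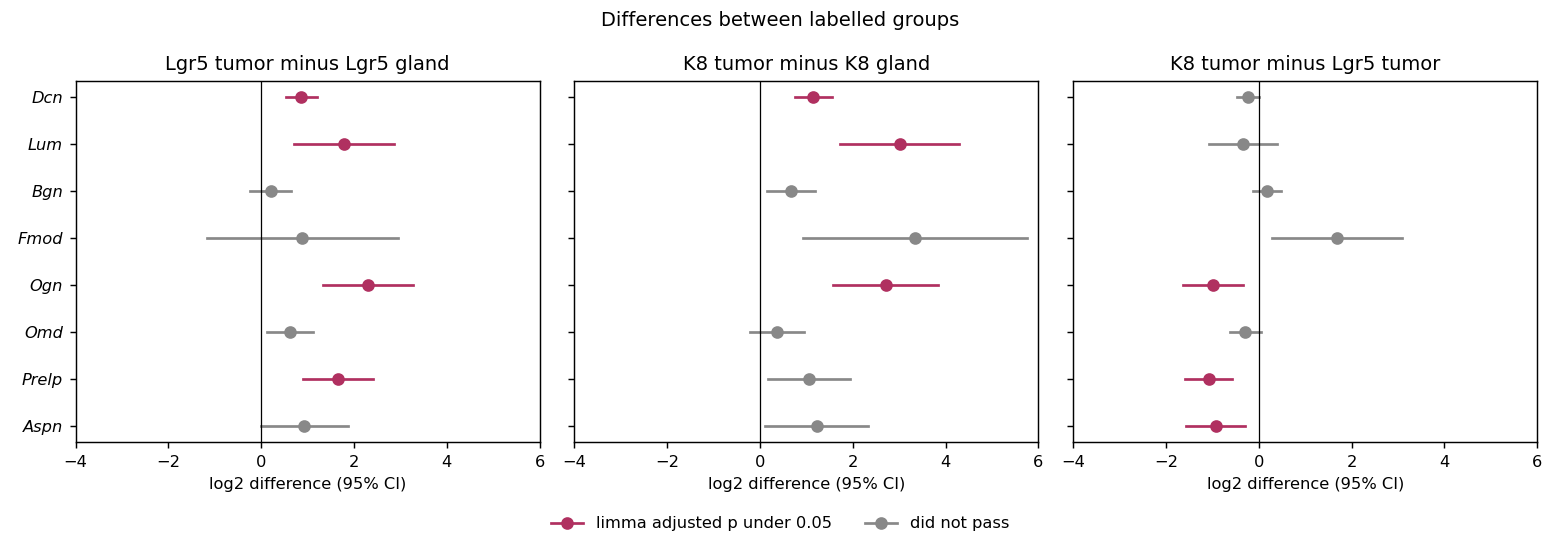
Log2 difference with its 95% interval (horizontal axis) for each of the 8 genes in the 3 comparisons that involve tumors, each labelled with its direction, with red for an adjusted p under 0.05 (limma) and grey for no call. Ogn and Lum stand at 2.30 and 1.78 in the Lgr5 line and at 2.71 and 3.01 in the K8 line, while the intervals of Fmod are the widest of the 8.

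K8 tumors against Lgr5 tumors compares tumors of different cells of origin, in different strain mixtures. Prelp, Aspn and Ogn were lower in K8 tumors. No member was called higher, so the called members were 3 of 8 in the downward direction, where 9.00% of all genes were called lower and 12.3% higher. Prelp was at 0.472 times the Lgr5 tumor level (log2 difference -1.08 ± 0.25, SE; adjusted p = 0.0128, limma), Ogn at 0.504 times (-0.99 ± 0.32; adjusted p = 0.0326) and Aspn at 0.524 times (-0.93 ± 0.31; adjusted p = 0.0364). With the replicate number as a block Aspn missed the threshold (adjusted p = 0.0680, limma). Fmod was the member furthest to the other side, at 1.68 ± 0.67 (adjusted p = 0.0764). Bgn (0.17 ± 0.14), Dcn (-0.23 ± 0.11), Lum (-0.34 ± 0.35) and Omd (-0.29 ± 0.16) did not pass, with adjusted p from 0.141 to 0.539. The ranges of K8 and Lgr5 tumors overlapped for all 8 members, as they did for every gene tested, where 0% were separate in either direction.

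All of these calls were lost without the 5 fat-rich Lgr5 tumors, when 0 members and 0 genes passed (limma). Prelp then differed by -0.56 ± 0.26 and Ogn by -0.40 ± 0.36, with the same sign, and Aspn by -1.01 ± 0.42. Fmod and Bgn turned sign, to -0.044 and -0.23. All 11 adipocyte markers were called lower in K8 tumors, and 3 of 10 fibroblast markers were, with 0 higher in either list. With the mean of the adipocyte markers as a covariate 0 members and 0 of all genes were called. Without K8 tumor 9 and Lgr5 tumor 10, Prelp, Ogn and Dcn were lower and Fmod was higher, by 2.03 ± 0.64 (adjusted p = 0.0247), while Aspn missed the threshold (adjusted p = 0.0555). Of all genes 12.2% were then called lower and 16.1% higher.

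**Figure D3:**
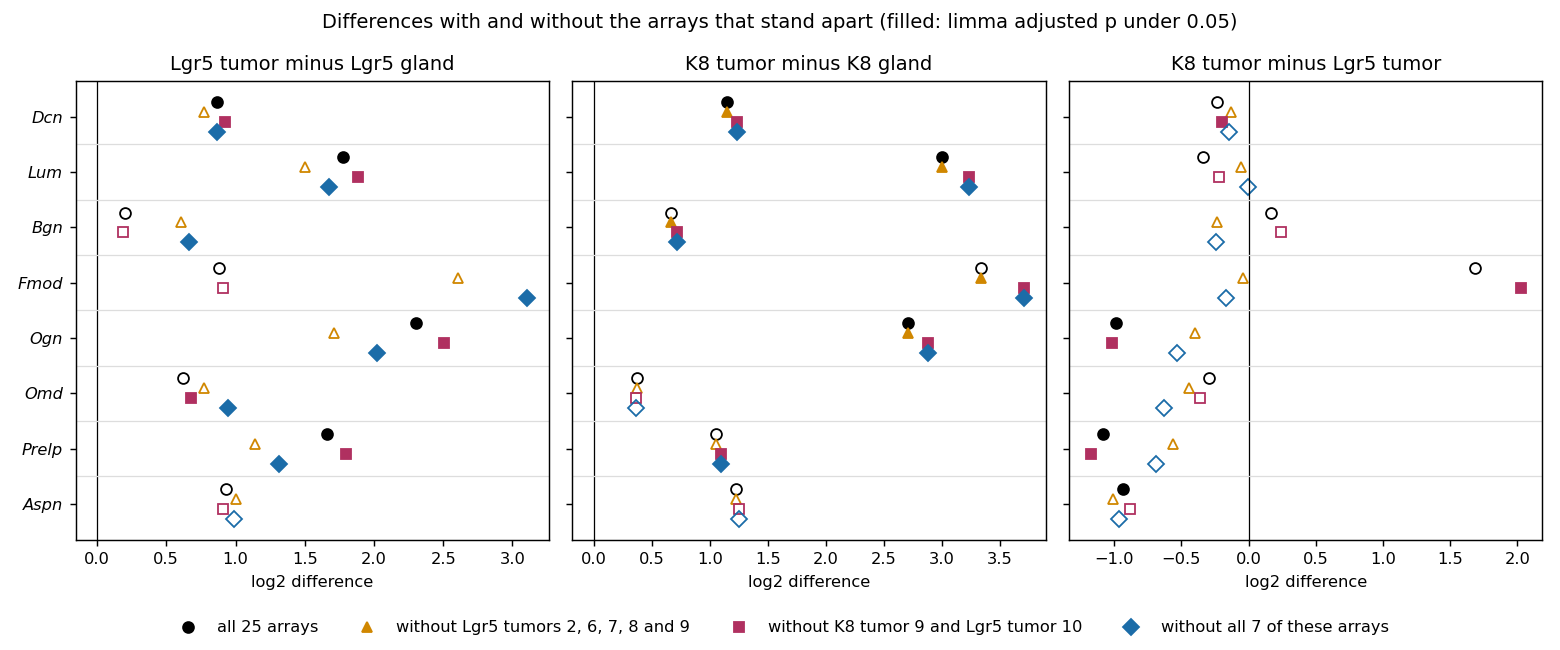
Log2 difference of each gene (horizontal axis) with all arrays, without the 5 fat-rich Lgr5 tumors, without both K8 tumor 9 and Lgr5 tumor 10, and without all 7, in each of the 3 comparisons, where filled symbols had an adjusted p under 0.05 (limma). Fmod in Lgr5 tumors against Lgr5 glands stands at 0.88 with all arrays and at 3.11 without the 7.

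Between the reference glands, all 8 members had lower means in K8 glands than in Lgr5 glands, by -0.042 for Omd to -1.57 for Lum on the log2 scale, and none passed (adjusted p = 0.9999 for each, limma). At an unadjusted p under 0.05 there were 3 members (Dcn, Lum and Ogn) and 319 genes, with 0% of genes called in either direction after adjustment. The difference between the K8 and the Lgr5 tumor-gland contrasts was called for 0 members and 0 genes, and 0 members and 883 genes had an unadjusted p under 0.05. Adjusted p for the members ran from 0.781 to 0.929 (limma). It was widest for Fmod, 2.45 with a 95% interval from -0.72 to 5.63. These intervals do not show that the lines responded alike. The 3 comparisons above share arrays, so their differences are given side by side and not correlated.

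**Figure D4:**
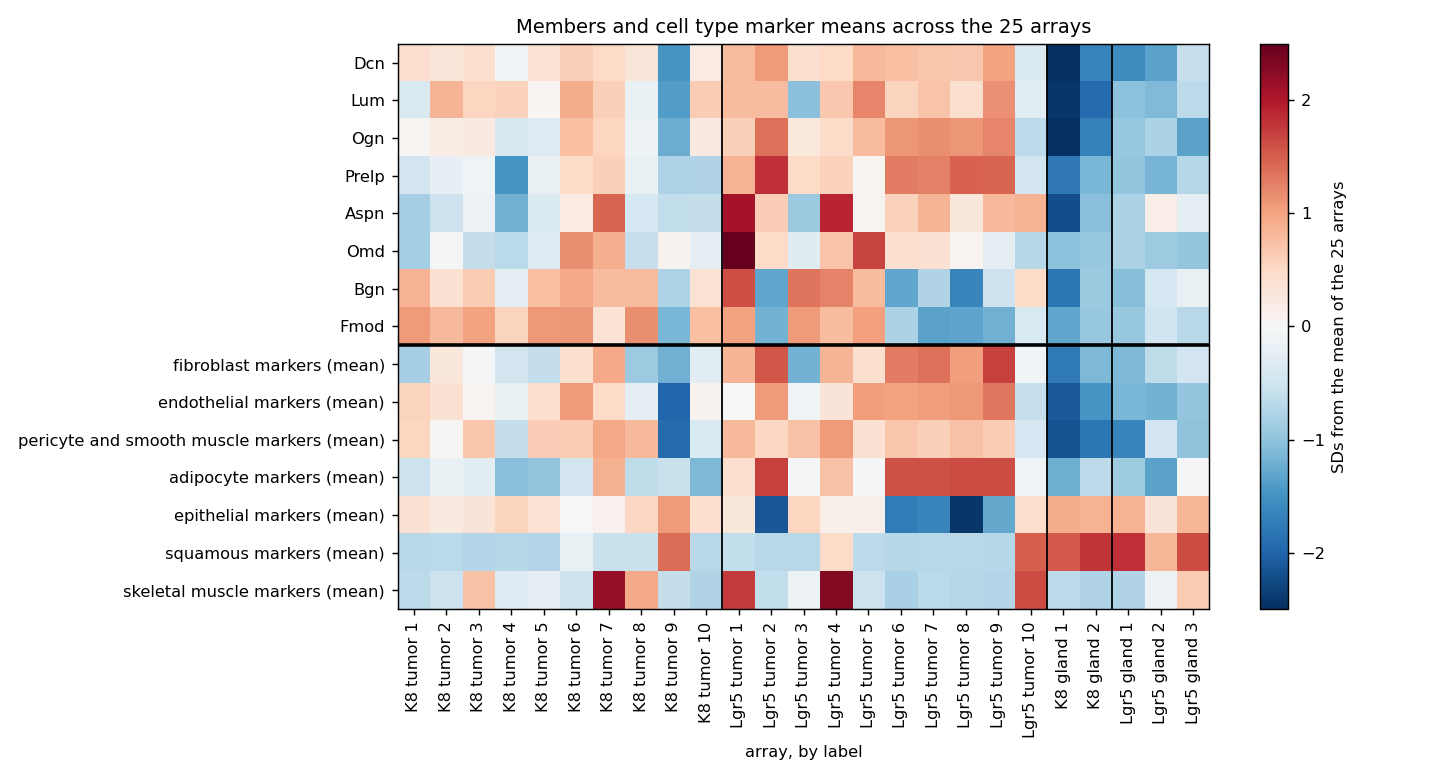
Distance of each gene's log2 level from its own mean over the 25 arrays, in SDs (colour), for the 8 genes (upper rows) and the means of 7 marker lists (lower rows) on all arrays (columns, by label). Lgr5 tumors 2, 6, 7, 8 and 9 are high in Ogn and Prelp and low in Fmod and Bgn, and K8 gland 1 is low in all 8.

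The members fell into different orders over the array sets. Prelp was 12.02 to 12.54 on the 5 fat-rich Lgr5 tumors, 10.94 to 11.68 on Lgr5 tumors 1, 3, 4 and 5, 9.54 to 11.43 on the K8 tumors other than tumor 9, and 9.26 to 10.24 on the glands. Ogn had the same order, with 11.39 to 11.75, 10.30 to 10.99, 9.44 to 10.92 and 6.71 to 8.91. In both genes the 5 fat-rich arrays were above all the other arrays. Adipocyte marker means on these sets were 12.52 to 12.74, 9.53 to 10.95, 7.59 to 11.23 and 7.18 to 9.54. Fibroblast marker means were 9.98 to 10.39, 8.59 to 9.86, 8.76 to 9.91 and 8.23 to 9.03. Fits of the group comparisons with either mean as a covariate are given elsewhere in the text. Beyond those fits, the part of these markers in the levels of Prelp and Ogn was not tested.

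Fmod and Bgn ran otherwise. Fmod was 6.97 to 7.99 on the fat-rich arrays and 7.04 to 8.55 on the glands, but 10.89 to 11.42 on Lgr5 tumors 1, 3, 4 and 5 and 10.11 to 11.61 on the K8 tumors other than tumor 9. Bgn was 11.72 to 12.13 on the fat-rich arrays and 11.66 to 12.25 on the glands, against 12.61 to 12.91 and 12.24 to 12.67 on the same tumor sets. For both genes the fat-rich arrays thus overlapped the glands. A gap separated them from those 13 tumors, wide for Fmod (7.99 to 10.11) and narrow for Bgn (12.13 to 12.24). The pericyte and smooth muscle marker mean, for comparison, was 9.67 to 9.78 on the fat-rich arrays, 9.60 to 9.95 on Lgr5 tumors 1, 3, 4 and 5, 9.10 to 9.90 on the K8 tumors other than tumor 9, and 8.29 to 9.16 on the glands. The basal and myoepithelial marker mean was 8.53 to 9.65, 10.51 to 11.09, 10.48 to 11.61 and 9.71 to 10.56 on these sets in the same order. The part of either marker list in the Fmod and Bgn levels was not tested.

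Dcn and Lum followed neither order fully. Dcn was 13.10 to 13.30 on the fat-rich arrays, 12.98 to 13.18 on Lgr5 tumors 1, 3, 4 and 5, 12.75 to 13.07 on the K8 tumors other than tumor 9 and 11.43 to 12.50 on the glands. Lum was 11.14 to 12.04, 9.32 to 12.14, 10.16 to 11.78 and 7.57 to 9.80 on these sets. K8 tumor 9 and Lgr5 tumor 10, the tumors with squamous marker means of 10.02 and 10.20, had Dcn at 12.06 and 12.60, the lowest of their groups.

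Aspn and Omd were highest on Lgr5 tumor 1, with 11.68 and 6.85. Aspn was next highest on Lgr5 tumor 4, at 11.51, and on K8 tumor 7, at 11.10. Skeletal muscle marker means were 9.88, 10.60 and 10.45 on Lgr5 tumors 1 and 4 and K8 tumor 7. They were 9.71 on Lgr5 tumor 10 and 8.80 on K8 tumor 8, where Aspn was 10.56 and 9.36. Over the 25 arrays Aspn had r = 0.61 with this mean. It had 0.79 with the fibroblast, 0.66 with the adipocyte and 0.64 with the pericyte and smooth muscle mean. With the endothelial, squamous and epithelial means r was 0.52, -0.27 and -0.45. The part of any of these marker lists in the Aspn level was not tested.

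**Figure D5:**
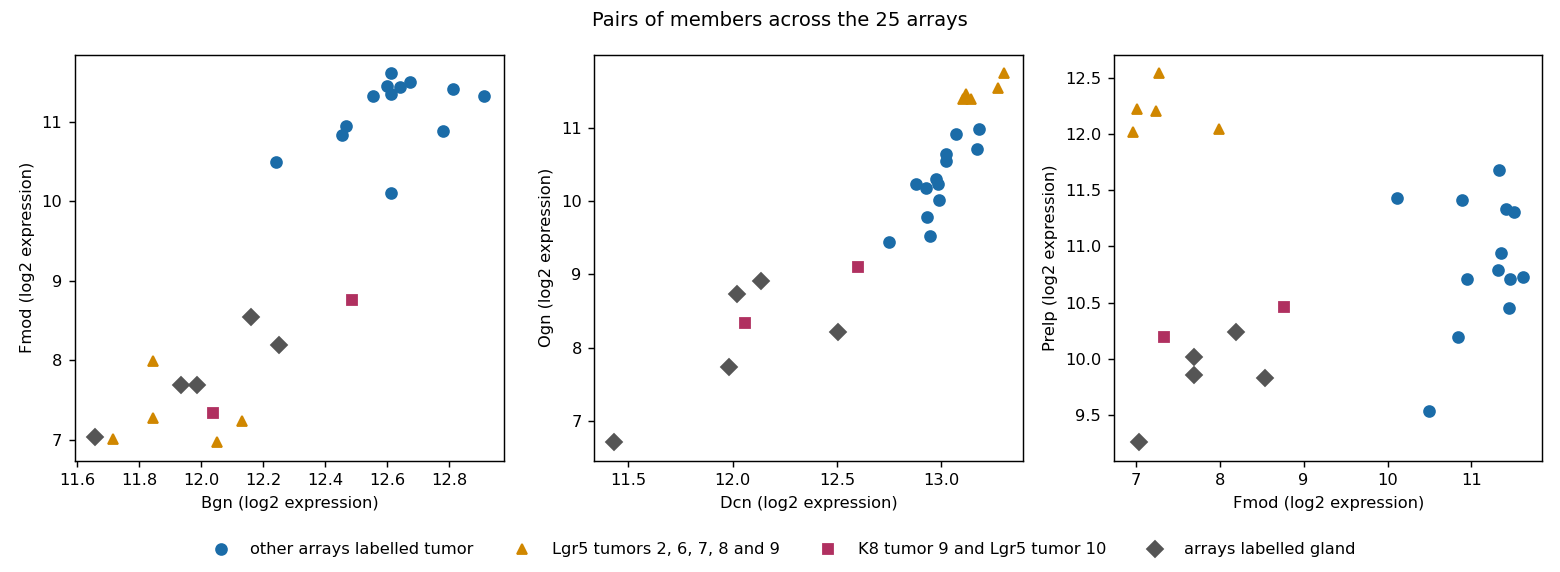
Log2 levels of Fmod against Bgn, Ogn against Dcn and Prelp against Fmod on the 25 arrays (points), with symbols for the 5 fat-rich Lgr5 tumors, for K8 tumor 9 and Lgr5 tumor 10, for the other tumors and for the glands. Bgn and Fmod are high together on the other tumors, and on the 5 fat-rich arrays Prelp is at 12.02 to 12.54 while Fmod is at 6.97 to 7.99.

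Genes with a pattern most like each member's were ranked by Pearson's r over the 25 arrays, among genes above the median level. The arrays fall into the sets described above and share them, so r is a description of likeness across those sets. Nearest to Dcn were Scn7a (r = 0.98), Mmp2 (0.96), the gelatinase, and Fmo1 (0.96). Lum was nearest to Col6a2 (0.97), a collagen VI chain, Fstl1 (0.96) and Col3a1 (0.96), the collagen III chain. Bgn was nearest to Fxyd6 (0.91), Bmp1 (0.91), which trims procollagens, and Entpd1 (0.90), and Fmod to Tpm2 (0.97), Casq2 (0.96) and Hey2 (0.96). Tpm2 encodes a muscle-type tropomyosin. Ogn was nearest to Glb1l (0.97), Zeb1 (0.96) and Gulp1 (0.96), and Prelp to Gstm1 (0.96), Frmd4b (0.95) and Blvrb (0.95). Aspn was nearest to Clec4a3 (0.89), a myeloid lectin receptor, Pip4k2a (0.87) and Clec4a1 (0.87), and Omd to Kctd12 (0.82), Itgbl1 (0.78) and Smap2 (0.76).

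Other genes of the family and its pathway were read in the same fit, and their calls rest on the same arrays. Of all genes, 5.28% were called higher and 10.6% lower in Lgr5 tumors against Lgr5 glands, and 3.42% and 5.69% in the K8 line. In K8 against Lgr5 tumors 12.3% were called higher and 9.00% lower. The list counts below are to be read beside these shares, and several are near them. Without the 5 fat-rich Lgr5 tumors, 1 gene of all genes passed in Lgr5 tumors against Lgr5 glands and 0 genes passed in K8 against Lgr5 tumors (limma). Of the other SLRP family genes, 9 were measured. In Lgr5 tumors against Lgr5 glands, 1 was higher and 0 lower: Ecm2, next to Aspn on chromosome 13 (log2 difference 1.55 ± 0.41, SE; adjusted p = 0.0177, limma). Ecm2 ran from 6.64 through 8.30 to 8.87 in Lgr5 tumors, above the 6.33, 6.48 and 6.56 spanned by the Lgr5 glands. In K8 tumors against K8 glands, 1 was higher and 0 lower, Chadl, a chondroadherin-like collagen-binding protein (1.78 ± 0.55; adjusted p = 0.0461). In K8 against Lgr5 tumors, 2 were higher, Epyc (2.40 ± 0.73; adjusted p = 0.026) and Chadl (1.02 ± 0.32; adjusted p = 0.0289), and 2 lower, Podn (-1.37 ± 0.36; adjusted p = 0.0162) and Ecm2 (-1.10 ± 0.28; adjusted p = 0.0146).

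Epyc, which encodes epiphycan, a cartilage SLRP, and Kera, which encodes keratocan of the cornea, sit beside Lum and Dcn. Epyc was at 7.65 to 10.20 on 8 of the 10 K8 tumors and at 10.83 on Lgr5 tumor 5, while no gland exceeded 5.20. It was 5.13 and 5.23 on K8 tumors 9 and 7, and 5.42 at most on the 5 fat-rich Lgr5 tumors. Kera reached 9.45 on K8 tumor 6 and 9.98 on Lgr5 tumor 5, against at most 5.69 on the glands. Both genes were thus far above gland level on a subset of tumors, where Lum and Dcn were high on nearly all. The mean of 10 cartilage, bone and tendon markers was highest on the arrays with the highest Epyc, at 7.12 on Lgr5 tumor 5 and 7.06 on K8 tumor 6. But the mean was also 6.99 on Lgr5 tumor 1 and 6.90 on Lgr5 tumor 4, where Epyc was only 5.19 and 5.15. It was 6.71 to 7.06 on the K8 tumors other than tumor 9, 6.18 to 6.34 on the fat-rich Lgr5 tumors and 6.58 to 6.76 on the glands. Of these markers 1 was called higher in K8 than in Lgr5 tumors and 0 lower, and their part in the Epyc level was not tested.

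Fibrillar collagen and assembly genes made the largest share of calls among the pathway lists in the tumor-gland comparisons, and the smallest in K8 against Lgr5 tumors. Of 25 measured, 12 were higher in Lgr5 tumors than in Lgr5 glands and 12 were higher in K8 tumors than in K8 glands, with 0 lower in either. Pcolce, the procollagen C-proteinase enhancer, was higher by 1.38 ± 0.28 (SE; adjusted p = 0.00841, limma) in the Lgr5 line and by 1.30 ± 0.32 (adjusted p = 0.021) in the K8 line. Col6a1 was higher by 1.17 and 1.16, Col6a2 by 1.29 and 1.44, and Sparc, a collagen-binding matricellular protein, by 0.63 and 0.90. In K8 against Lgr5 tumors 0 of 25 were higher and 2 lower, Thbs2 (-1.26 ± 0.29) and Dpt (-1.60 ± 0.42), which encodes dermatopontin, a decorin-binding protein. Without the 5 fat-rich Lgr5 tumors 0 of all genes were called there. The list's median differences were 0.72, 1.15 and -0.21 in the 3 comparisons, where those of the 8 members were 0.91, 1.19 and -0.32.

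Of 29 genes that build the glycosaminoglycan chains, 6 were higher and 3 lower in Lgr5 tumors than in Lgr5 glands. The shares of all genes there were 5.28% higher and 10.6% lower. In K8 tumors against K8 glands 6 of the 29 were higher and 1 lower, beside 3.42% and 5.69% of all genes. Dse, the epimerase that turns chondroitin into dermatan sulfate, was higher in both, by 0.67 ± 0.17 and 0.92 ± 0.20 (SE; adjusted p = 0.0175 and 0.015, limma). Ust, a uronyl 2-sulfotransferase, was higher by 1.14 and Chst15 by 1.41 in the Lgr5 line. Dsel, related to Dse, was higher by 1.19 and Chst14, the dermatan 4-sulfotransferase, by 0.91 in the K8 line, where B4galt7, a linkage-region enzyme, was lower by -0.51. Between the tumors 3 were higher and 3 lower in K8, among them Ust at -0.93 and Chst1 at -1.25. These counts were near the shares of all genes, 12.3% higher and 9.00% lower. Chst1 was 10.38 to 10.71 on the fat-rich Lgr5 tumors. It was 8.04 to 8.53 on Lgr5 tumors 1, 3, 4 and 5 and 7.59 to 8.79 on K8 tumors other than tumor 9. Ust was 8.58 to 8.96, 7.57 to 8.43 and 7.03 to 8.04 on these sets.

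Among 21 genes for proteins that SLRPs bind, 4 were higher and 1 lower in Lgr5 tumors than in Lgr5 glands, and 3 were higher and 0 lower in K8 tumors than in K8 glands. Lrp1, an endocytic receptor that takes up decorin, was higher in both lines, by 0.81 ± 0.15 and 0.82 ± 0.18 (SE; adjusted p = 0.00575 and 0.0134, limma). Tgfbr3, the co-receptor betaglycan, and Kdr, the VEGF receptor, were higher by 1.16 and 1.35 and Itga2, a collagen receptor subunit, was lower by -1.02 in the Lgr5 line. In the K8 line Tgfbr2 was higher by 0.89 and Itgb1 by 0.36. Tgfb3 was higher in K8 than in Lgr5 tumors, by 0.85, as was Itga2, by 0.81, with 2 higher and 3 lower in all. Of all genes 12.3% were called higher and 9.00% lower there, and 0 were called without the 5 fat-rich Lgr5 tumors. Tgfb3 was 10.04 to 10.62 on those 5 arrays. It was 11.98 to 12.49 on Lgr5 tumors 1, 3, 4 and 5 and 11.91 to 12.30 on K8 tumors other than tumor 9. Itga2 was 7.83 to 8.69, 8.99 to 9.46 and 9.19 to 9.92 on these sets.

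Of 11 TGF-beta response genes, 0 were higher and 2 lower in Lgr5 tumors than in Lgr5 glands, Smad7 (-0.52) and Cdkn2b (-1.16). In K8 tumors against K8 glands 3 were higher and 0 lower, Postn (0.69), Tagln (2.74) and Timp3 (1.52). In K8 against Lgr5 tumors 3 were higher and 0 lower, Ccn2 (1.21), Ltbp2 (0.85) and Pmepa1 (0.49). Of all genes 12.3% were called higher in that comparison, and 0 without the 5 fat-rich Lgr5 tumors. Ccn2 was 9.08 to 9.69 on those 5 arrays. On Lgr5 tumors 1, 3, 4 and 5 it was 11.77 to 12.46, and on K8 tumors other than tumor 9 it was 11.55 to 12.49. Ltbp2 was 7.66 to 8.18, 9.08 to 9.56 and 9.38 to 10.15 on these sets. Pmepa1 was 11.20 to 11.42, 12.22 to 12.48 and 12.13 to 12.50. Of 10 proteases that cleave SLRPs, 2 were higher and 1 lower in each tumor-gland comparison. The 1 lower was Mmp13 in the Lgr5 line, by -2.92, and Mmp7 in the K8 line, by -2.93 (adjusted p = 0.028 and 0.0445, limma). It stands beside 10.6% of all genes in the Lgr5 line and 5.69% in the K8 line. Mmp2 was higher in both, by 1.09 ± 0.22 in the Lgr5 line and 1.45 ± 0.26 in the K8 line (SE; adjusted p = 0.00843 and 0.00821, limma). Adamts5, an aggrecanase, was higher by 1.74 in Lgr5 tumors and lower in K8 than in Lgr5 tumors, by -1.23. Its level was 10.70 to 11.54 on the fat-rich Lgr5 tumors. It was 8.31 to 9.67 on Lgr5 tumors 1, 3, 4 and 5 and 8.03 to 9.76 on K8 tumors other than tumor 9.

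Stromal cell markers were read beside these genes. In Lgr5 tumors against Lgr5 glands 6 of 10 fibroblast markers, 11 of 11 adipocyte markers and 7 of 8 endothelial markers were higher, with 0 lower in each list. In K8 tumors against K8 glands the counts were 1 of 10, 0 of 11 and 3 of 8, again with 0 lower. Of pericyte and smooth muscle markers 2 of 9, and of macrophage markers 1 of 8, were higher in each line, with 0 lower. Of all genes 5.28% were called higher in the Lgr5 line and 3.42% in the K8 line. Endothelial marker means were 9.78 to 9.97 on the fat-rich Lgr5 tumors and 7.97 to 8.62 on the glands. With the mean of the fibroblast markers as a covariate, an alternative chosen after seeing the data, 0 members and 0 of all genes were called in Lgr5 tumors against Lgr5 glands, and 0 members and 1 gene in K8 against Lgr5 tumors. In K8 tumors against K8 glands 3 members were called higher, and 41 of all genes were.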

How the data were processed

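RNA from cryo-homogenized mammary tumors and glands (100 ng) was amplified and hybridised to Affymetrix whole-transcript arrays, per the labels' protocols. The values used are the deposited log2 expression table of 25 arrays and 34760 probe sets. Its log2 scale was read from its range of 4.13 to 13.94. The submitters' processing notes name affy, and no label or file header states the authors' background correction, normalization or summarization steps. Background, saturation and detection could not be assessed, and the number of arrays limits the precision.

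Of the probe sets, the platform annotation gave 1 gene symbol to 21640 and several to 1321, and did not list 11799. The probe set with the highest mean stood for each of 19937 genes. Groups follow the array titles. No array pair was a duplicate, the highest correlation being 0.995. Group means over all 25 arrays were fitted with limma 3.58.1 in R 4.3.3 (lmFit and eBayes), and p-values were adjusted by Benjamini-Hochberg over all genes with a threshold of 0.05. The fit was tested on simulated data. Gene names, promoters and coordinates came from RefSeq (GRCm38.p6). The genes named were the 8 members, up to 4 genes with the smallest adjusted p per pathway list and comparison, and the 3 genes most like each member; Kera and marker genes are named beside them. Kera was chosen after its values were seen. The members and lists were chosen with earlier results of these data known.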

Additional observations from a re-analysis of the deposited data

Results flagged for a closer look

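A single array stood apart from its group of 10 in 4 of 16 tests. The rule was a gap to the nearest array over the group's range above Dixon's 95% value of 0.466. Chance gives about 1 in 20 for a single test. The 16 tests share arrays and the genes vary together, so this count cannot show an excess over chance. Dcn was 12.06 on K8 tumor 9, where the next lowest K8 tumor had 12.75. Dcn was 12.60 on Lgr5 tumor 10, where the next lowest Lgr5 tumor had 12.98. Fmod was 7.34 on K8 tumor 9, and the next lowest K8 tumor had 10.11. Aspn was 11.10 on K8 tumor 7, the highest of the K8 tumors, and the next had 9.95. K8 tumor 9 and Lgr5 tumor 10 carried squamous marker means of 10.02 and 10.20. K8 tumor 7 had a skeletal muscle marker mean of 10.45. Its fibroblast (9.91) and adipocyte (11.23) marker means were the highest of the K8 tumors. The part of these markers in these values was not tested.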

How the results depend on the processing

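The members called in Lgr5 tumors against Lgr5 glands, 4 with all arrays, were 0 with the adipocyte or the fibroblast marker mean as a covariate, 0 without the 5 fat-rich Lgr5 tumors and 7 without all 7 arrays. With array weights they were 6. In K8 tumors against K8 glands, 3 became 5 in a fit on those groups alone, 7 with array weights, 5 with the adipocyte covariate, 5 without the 5 fat-rich arrays, 6 with K8 tumor 9 and Lgr5 tumor 10 both left out, and 6 without all 7. In K8 against Lgr5 tumors, 3 became 5 with array weights, 0 with either covariate, 0 without the 5 fat-rich arrays and 0 without all 7. The fibroblast covariate was chosen after seeing the data. Leaving out single arrays gave 1 to 5, 0 to 5 and 1 to 4 members in these comparisons, and 0 to 0 between the glands and in the difference of contrasts. The lowest counts came without Lgr5 gland 1 (1), without K8 gland 1 (0), and without K8 tumor 4 or 5 or Lgr5 tumor 2, 6, 7, 8 or 9 (1 each), and without K8 tumor 9 there were 5 members in K8 tumors against K8 glands. All genes called ranged from 252 to 4990, 30 to 3382 and 2291 to 5698 over the same fits.

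Sign turned in K8 against Lgr5 tumors for Lum (0.25 with the adipocyte and 0.60 with the fibroblast covariate), Bgn (-0.16 with the adipocyte covariate, -0.23 without the 5 arrays, -0.24 without all 7) and Fmod (-0.15, -0.044 and -0.17 in the same order). It also turned for Omd between the glands (0.066, fibroblast covariate), and in the difference of contrasts for Prelp (0.23, adipocyte covariate), Ogn (-0.11 without K8 gland 1, 0.92 without K8 gland 2) and Aspn (-0.25 and 0.84, likewise). The cause was not tested.

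Under the replicate block, 3, 3 and 2 members were called, and all genes called were 1737, 1420 and 4246, against 3168, 1815 and 4246 without it. In the 3 comparisons array weights called 7815, 6341 and 7997 genes, and fits on the compared groups alone called 690, 2859 and 3238. The adipocyte covariate called 0, 2834 and 0 genes and the fibroblast covariate 0, 118 and 1. Leaving out K8 tumor 9 with Lgr5 tumor 10 gave 5387 and 3963 genes in the tumor-gland comparisons, and leaving out all 7 arrays gave 3582 genes in Lgr5 tumors against Lgr5 glands, 5351 in K8 tumors against K8 glands and 0 in K8 against Lgr5 tumors. Equal numbers do not pair the arrays: of 17 same-numbered pairs, 4 had deviations that correlated above 0.1, and in 2 an array correlated best with its own number. Trend and robust moderation, quantile normalization, a level filter, averaged probe sets and testing every probe set left the counts of members within 1.5 times.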
